A study of Mus musculus with 8 samples.

Results

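The chemokine system of mouse vomeronasal tissue was described from 66 protein-coding genes, 44 encoding chemokine ligands and 22 encoding chemokine receptors, out of 48831 genes in the deposited counts. Members were the genes whose GENCODE M21 symbol is made of the stem Ccl, Cxcl, Cx3cl, Xcl, Ccr, Cxcr, Cx3cr, Xcr or Ackr followed by a number and at most 1 further letter. They carry 61 distinct symbols, because Ccl19, Ccl21a and Ccl27 are each annotated at 2 places and Ccl21b at 3. Cxcl11 has such a symbol but is annotated as a polymorphic pseudogene and was left out. Genes named outside this scheme, such as the chemokines Pf4 and Ppbp and the receptor relative Ccrl2, are treated further on as a separate list.

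The vomeronasal epithelium lines a paired tube at the base of the nasal septum and holds the sensory neurons that respond to pheromones. RNA of whole tissue was sequenced from C57BL/6J mice aged 8 weeks in 8 libraries, which address the expression of vomeronasal receptor genes. Of these, 4 libraries came from flushed tissue of 1 mouse each (2 males, numbered 1 and 3, and 2 females, numbered 2 and 3), and 4 came from non-flushed tissue pooled from 2 mice of the same sex (2 male and 2 female pools). Flushing clears blood from the vessels. The protocol text common to all 8 labels has every mouse flushed with heparin, which differs from the description of the pools, and the descriptions were followed here. Preparation also coincides with the number of mice in a library and with separate directories named in the file headers, so these cannot be told apart. The labels name no mutation, drug or stimulus in any group.

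Chemokines are small secreted proteins that attract cells carrying matching G protein-coupled receptors, and they guide leukocytes into and through tissues. A chemokine often binds several receptors, while the atypical receptors (Ackr) bind chemokines without signalling through G proteins and remove or present them. In mucosal linings, epithelial chemokines such as Ccl25 and Ccl28 are known for attracting lymphocytes and antibody-secreting cells, and Cxcl1, Cxcl2 and Cxcl5 for attracting neutrophils through Cxcr2.

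Total counts ranged from 22101913 to 24965088 in the flushed libraries and from 18763557 to 22096792 in the pools, and the members took between 0.0341 and 0.0466% of them. Of 8 markers of vomeronasal sensory neurons, 7 were detected at a summed 620 to 712 CPM (counts scaled to the size of the library) in flushed libraries and 689 to 889 CPM in pools, with Omp at 341 to 409 CPM in flushed libraries and 361 to 484 CPM in pools, and Trpc2 was listed at 0 in every library. Markers of blood were lower in flushed tissue, with all 8 erythroid markers past the test (106 to 622 CPM summed in flushed libraries, 1650 to 2060 CPM in pools). The mitochondrial share of counts was 0.569 to 0.693% in flushed libraries and 0.272 to 0.322% in pools. Col1a1, a gene of fibroblasts and matrix, had a mean of 7070 CPM in flushed libraries and 17500 CPM in pools. The levels below are thus those of whole tissue and not of the epithelium alone. In bulk tissue, fewer cells of a type and less RNA per cell cannot be told apart.

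Ligand genes covered a wide range of levels, compared between genes as reads per kilobase of exon and per library size (RPKM, mean ± SD, n = 8 libraries). Cxcl17, a mucosal chemokine (ENSMUSG00000060188, GRCm38 chromosome 7, 25400053 to 25412886, minus strand), had the highest level at 34.6 ± 5.77 RPKM, with a range of 27.4 to 44.5 RPKM that no other member reached. Cxcl12, which binds Cxcr4 and Ackr3, came next at 11.7 ± 1.22 RPKM (range 9.66 to 13.7). Their ranges did not overlap with each other. Below them, Ccl9 (6.996 ± 1.40 RPKM, a mouse ligand of Ccr1), Ccl28 (6.55 ± 2.33), Cxcl16 (6.26 ± 0.770, the membrane-bound ligand of Cxcr6), Cx3cl1 (5.93 ± 0.961, the membrane-bound ligand of Cx3cr1) and Ccl8 (5.70 ± 1.51) had overlapping ranges. Cxcl5 followed at 4.58 ± 1.55 RPKM, and the copies of Ccl21a, a ligand of the lymphocyte and dendritic cell receptor Ccr7, at 3.604 ± 1.34 and 3.04 ± 1.04 RPKM.

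No receptor gene reached the level of Cxcl17 or Cxcl12. Cxcr4, the receptor of Cxcl12, had 7.64 ± 0.914 RPKM (range 6.74 to 9.38), and Ackr3, which takes up the same ligand, had 5.66 ± 0.329 RPKM (range 4.94 to 5.99). Ackr4, which takes up Ccl19, Ccl21 and Ccl25, had 4.88 ± 0.658 RPKM. Cx3cr1, carried by monocytes and macrophages, had 4.29 ± 0.573 RPKM, Ccr2, the monocyte receptor of Ccl2, had 3.81 ± 1.16 RPKM, and Ccr1 had 3.59 ± 0.352 RPKM. Cxcr6, Cxcr2 and Cxcr3 had 2.78 ± 1.69, 1.76 ± 0.510 and 0.815 ± 0.493 RPKM. The ranges of Cxcr4 and Ackr3 did not overlap, while the other neighbours named in this order had overlapping ranges.

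**Figure D1:**
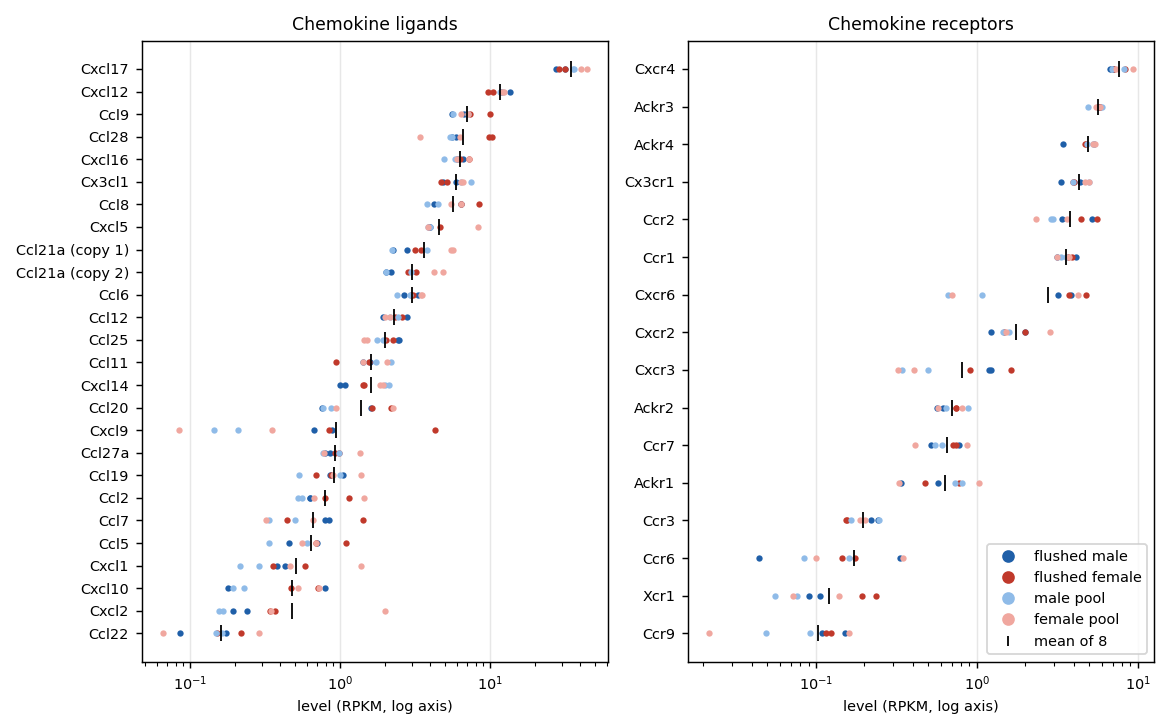
Level of 42 members that passed the filter on low counts, in RPKM on a log axis, with 1 point per library coloured by group and a black tick at the mean of 8 libraries; ligands are on the left and receptors on the right. Cxcl17 lies above all others, Cxcl12, Cxcr4 and Ackr3 vary little between libraries, and Cxcl9 and Cxcr6 spread widely.

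A mean of 1 RPKM or more was reached by 16 ligand and 9 receptor genes, and 41 members stayed below it. The filter on low counts, which looks at all 4 groups, left 26 ligand and 17 receptor genes for testing. Of the 23 members not tested, 18 had some counts. They include the inflammatory ligands Ccl3 and Ccl4, and Xcl1, the ligand of Xcr1. Ccr10, a receptor of Ccl27 and Ccl28, was among them with 41 counts over all 8 libraries. Ccl26, Ccl1, Ccl21c and 2 of the 3 copies of Ccl21b were at 0 in every library.

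The levels varied unevenly between libraries. The highest library held 1.21 times the CPM of the lowest for Ackr3, 1.31 times for Ccr1, 1.39 times for Cxcr4 and 1.41 times for Cxcl12, but 7.12 times for Cxcr6, 12.7 times for Cxcl2 and 50.7 times for Cxcl9. Around the means of the 4 groups, the residual SD of log2(CPM + 0.5) had a median of 0.234 over the 34 members with a mean count of at least 20, against 0.131 over 17870 genes. It was highest for Cxcl9 (0.857), Cxcr6 (0.822) and Cxcl2 (0.683), and lowest for Cxcl14 (0.049), Ccl25 (0.081) and Cxcl12 (0.090). The members and the 17870 genes were not matched for count level, which affects this SD. Whether members vary more than genes of like count was not tested. Cxcl14 had a mean count of only 62.2 with 2 libraries per group, so its low value does not establish a steady level. All differences below are log2 differences from edgeR's quasi-likelihood fit over 20601 genes with their SE, and adjusted p-values are by Benjamini and Hochberg over all those genes.

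The first comparison set flushed single mice against non-flushed pools. The T cell and natural killer cell receptors Cxcr3 and Cxcr6, the monocyte receptor Ccr2 and the dendritic cell receptor Xcr1 were higher in flushed tissue. So were the ligands Cxcl9, Ccl25 and Ccl28, while the ligands Cxcl17, Cx3cl1 and Cxcl14 were lower. That makes 8 of 43 tested members higher and 3 lower at an adjusted p of 0.05, where 22.6% of all tested genes were higher and 22.9% lower. Over both directions 25.6% of the tested members and 45.5% of all tested genes passed, and the median log2 difference was -0.004 over the tested members and -0.02 over all genes. The levels of the groups of 4 libraries did not overlap for 4 members that were higher and 3 that were lower, where 41.7% of all genes did not overlap.

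**Figure D2:**
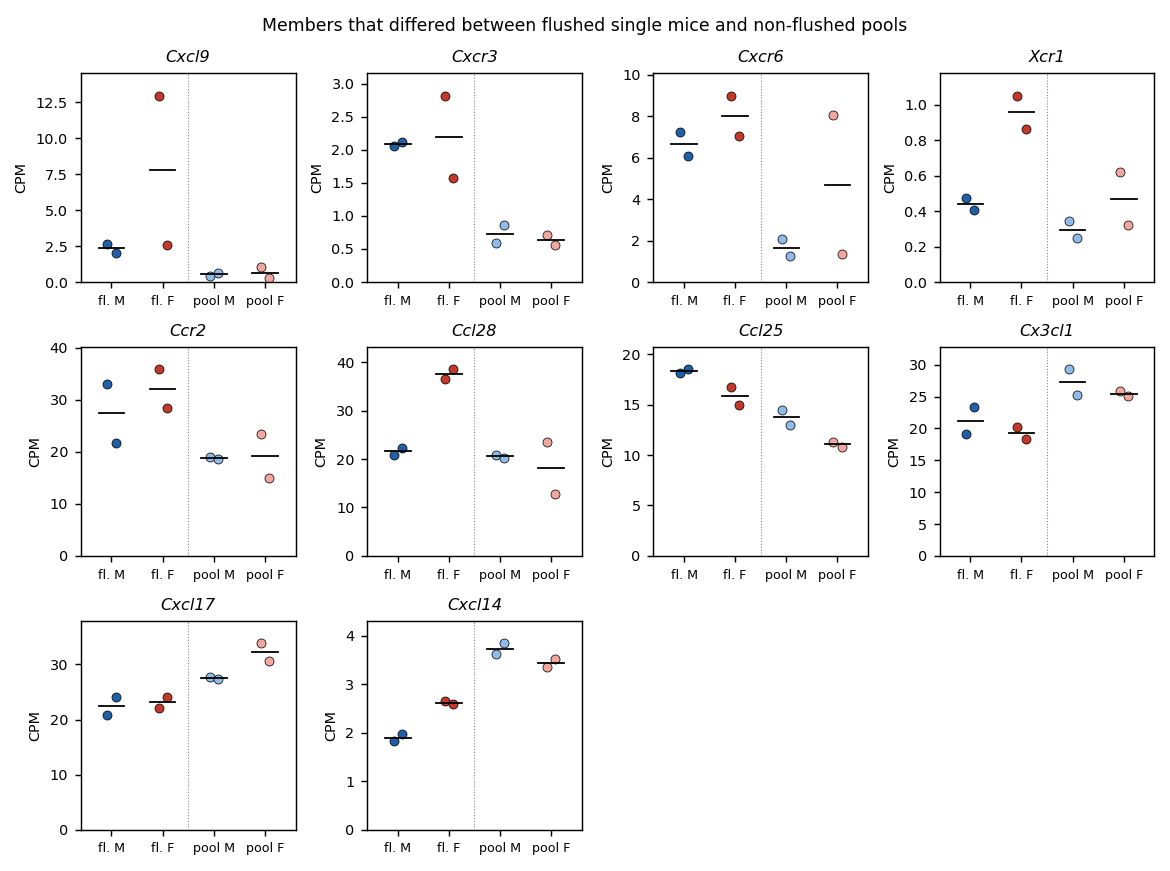
CPM of 10 members that passed the test between preparations, in order of their log2 difference; fl. M and fl. F are flushed single males and females, pool M and pool F are non-flushed pools, each point is 1 library and each line the mean of 2. Cxcr3, Cxcl9 and Ccl25 lie wholly above the pools in flushed tissue, and Cxcl17, Cx3cl1 and Cxcl14 wholly below them.

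Among the receptors, Cxcr3, which binds the interferon-induced ligands Cxcl9 and Cxcl10 (ENSMUSG00000050232, chromosome X, 101731535 to 101734269, minus strand), had 2.06 and 2.11 CPM in flushed males and 2.82 and 1.57 CPM in flushed females, against 0.594 and 0.861 CPM in male pools and 0.708 and 0.562 CPM in female pools. Every flushed library lay above every pool. The difference was 3.13-fold (log2 difference 1.64, SE 0.25, adjusted p = 0.00056, n = 4 against 4).

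Ccr2 (ENSMUSG00000049103, chromosome 9, 124101950 to 124113557) had 33.1 and 21.6 CPM in flushed males and 35.8 and 28.4 CPM in flushed females, against 19 and 18.6 CPM in male pools and 23.3 and 15.0 CPM in female pools. Female pool 1 lay above flushed male 3, so the groups overlapped, and the difference was 1.56-fold (log2 difference 0.64, SE 0.16, adjusted p = 0.0086). Within females the log2 difference was 0.76 (adjusted p = 0.045), and within males 0.54 (0.065), where the call was lost. Counts of Ccr2 were not whole in 4 libraries, so some of its reads were divided between genes.

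Cxcr6, carried by resident T cells, had 7.25 and 6.07 CPM in flushed males and 9.0 and 7.05 CPM in flushed females, against 2.05 and 1.26 CPM in male pools and 8.06 and 1.33 CPM in female pools. Female pool 1 stood at the level of the flushed libraries and the other 3 pools far below them. The difference was 2.44-fold over all libraries (log2 difference 1.28, SE 0.44, adjusted p = 0.037) and 2.22 on the log2 scale without female pool 1 (adjusted p = 0.00013). The call was lost in 6 of the 8 fits that left out 1 library (adjusted p up to 0.1) and with DESeq2 (0.055). Within males the log2 difference was 2.00 (adjusted p = 0.0028), and within females 0.77 (0.40).

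Xcr1, the Xcl1 receptor of cross-presenting dendritic cells, had 0.476 and 0.405 CPM in flushed males and 1.05 and 0.862 CPM in flushed females, against 0.342 and 0.249 CPM in male pools and 0.620 and 0.319 CPM in female pools. Female pool 1 lay above both flushed males, so the groups overlapped. Xcr1 passed at a 1.84-fold difference (log2 difference 0.88, SE 0.31, adjusted p = 0.042) but was lost in 6 of the 8 fits that left out 1 library (up to 0.13) and with DESeq2 (0.18). Its ligand Xcl1 had 18 counts in all libraries together and was not tested.

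The remaining receptors of high level did not pass the test. Cxcr4, Ackr3, Ackr4, Cx3cr1, Ccr1 and Cxcr2 had log2 differences between -0.24 (Cx3cr1, SE 0.10, adjusted p = 0.084) and 0.11 (Ccr1, SE 0.11, adjusted p = 0.44). Ackr3 had 19.6 and 19.1 CPM in flushed males and 19.01 and 19.6 CPM in flushed females, against 16.5 and 20.04 CPM in male pools and 18.4 and 19.4 CPM in female pools, a log2 difference of 0.06 (SE 0.08, adjusted p = 0.57). These groups lay on top of each other apart from the low male pool 1.

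Among the ligands, Cxcl9, an interferon-induced ligand of Cxcr3 (ENSMUSG00000029417, chromosome 5, 92321347 to 92328079, minus strand), had 2.66 and 2.02 CPM in flushed males and 12.95 and 2.55 CPM in flushed females, against 0.432 and 0.632 CPM in male pools and 1.06 and 0.256 CPM in female pools. Flushed female 2 stood far above the rest, and the other flushed libraries still lay above all pools. The difference was 7.80-fold (log2 difference 2.96, SE 0.60, adjusted p = 0.0027), and without flushed female 2 it was 2.03 on the log2 scale (adjusted p = 0.0029). Cxcl10, the other ligand of Cxcr3 that was tested, had 1.78 and 0.405 CPM in flushed males and 1.598 and 1.06 CPM in flushed females, against 0.432 and 0.517 CPM in male pools and 1.64 and 1.18 CPM in female pools. Its groups overlapped and its log2 difference of 0.44 (SE 0.44, adjusted p = 0.44) did not pass.

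Ccl25, the ligand of Ccr9 (ENSMUSG00000023235, chromosome 8, 4325210 to 4360020, plus strand), had 18.1 and 18.5 CPM in flushed males and 16.8 and 15.0 CPM in flushed females, against 14.5 and 13.03 CPM in male pools and 11.3 and 10.8 CPM in female pools. All flushed libraries lay above all pools by a small margin, and the difference was 1.38-fold (log2 difference 0.47, SE 0.08, adjusted p = 0.00096). Ccr9 itself was low, between 0.102 and 0.753 CPM, and did not pass (log2 difference 0.59, SE 0.47, adjusted p = 0.32).

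Ccl28, an epithelial ligand of Ccr10 and Ccr3 (ENSMUSG00000074715, chromosome 13, 119623819 to 119654354, plus strand), had 20.9 and 22.3 CPM in flushed males and 36.6 and 38.5 CPM in flushed females, against 20.8 and 20.3 CPM in male pools and 23.5 and 12.8 CPM in female pools. The flushed females stood apart from all other libraries. The difference over both sexes was 1.48-fold (log2 difference 0.57, SE 0.21, adjusted p = 0.049). It was 1.06 within females (adjusted p = 0.028) and 0.07 within males (0.67). The call was lost in 5 of the 8 fits that left out 1 library (adjusted p up to 0.11) and with DESeq2 (0.10).

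The ligands that were lower in flushed tissue differed by little and without overlap. Cxcl17 had 20.9 and 24.1 CPM in flushed males and 22.1 and 24.1 CPM in flushed females, against 27.8 and 27.3 CPM in male pools and 33.8 and 30.6 CPM in female pools (1.31-fold lower, log2 difference -0.39, SE 0.08, adjusted p = 0.0024). Cx3cl1 (ENSMUSG00000031778, chromosome 8, 94772009 to 94782427) had 19.1 and 23.4 CPM in flushed males and 20.2 and 18.4 CPM in flushed females, against 29.2 and 25.3 CPM in male pools and 25.8 and 25.04 CPM in female pools (1.30-fold lower, log2 difference -0.38, SE 0.08, adjusted p = 0.0043). Cxcl14, a chemokine of epithelia (ENSMUSG00000021508, chromosome 13, 56288647 to 56296551), had 1.82 and 1.98 CPM in flushed males and 2.65 and 2.59 CPM in flushed females, against 3.62 and 3.85 CPM in male pools and 3.37 and 3.53 CPM in female pools (1.59-fold lower, log2 difference -0.67, SE 0.16, adjusted p = 0.0057). All 3 calls held in each of the 8 fits that left out 1 library, but each was lost within 1 sex. Cxcl14 had a log2 difference of -0.97 within males (adjusted p = 0.017) and -0.38 within females (0.21). Cxcl17 had -0.46 within females (0.025) and -0.295 within males (0.10), and Cx3cl1 -0.38 within females (0.038) and -0.36 within males (0.088).

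The remaining ligands of high level did not pass the test. Cxcl12 had 112 and 96.1 CPM in flushed males and 85.2 and 78.97 CPM in flushed females, against 99.5 and 95.1 CPM in male pools and 97.9 and 101 CPM in female pools (log2 difference -0.09, SE 0.08, adjusted p = 0.40). Ccl9, Cxcl16, Ccl8 and Cxcl5 had log2 differences of 0.16, 0.12, 0.34 and -0.26, with adjusted p-values between 0.14 and 0.37. The Ccl21a copies were at -0.52 (SE 0.22, adjusted p = 0.08) on an unplaced scaffold and at -0.42 (SE 0.17, adjusted p = 0.067) on chromosome 4.

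The inflammatory CC ligands of chromosome 11 lie in a pair of runs. The first (82035571 to 82305690) holds Ccl2, Ccl7, Ccl11, Ccl12, Ccl8 and Ccl1, of which 5 were tested, and the second (83525778 to 83664683) holds Ccl5, Ccl9, Ccl6, Ccl3 and Ccl4, of which 3 were tested. None of these passed, with log2 differences between -0.43 for Ccl11, an eosinophil attractant (SE 0.21, adjusted p = 0.12), and 0.91 for Ccl7, a monocyte attractant (SE 0.42, adjusted p = 0.10). Ccl2, the main ligand of Ccr2, had 0.714 and 0.720 CPM in flushed males and 1.30 and 0.901 CPM in flushed females, against 0.595 and 0.632 CPM in male pools and 1.64 and 0.767 CPM in female pools. Its groups overlapped, and its log2 difference was 0.01 (SE 0.29, adjusted p = 0.98).

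**Figure D3:**
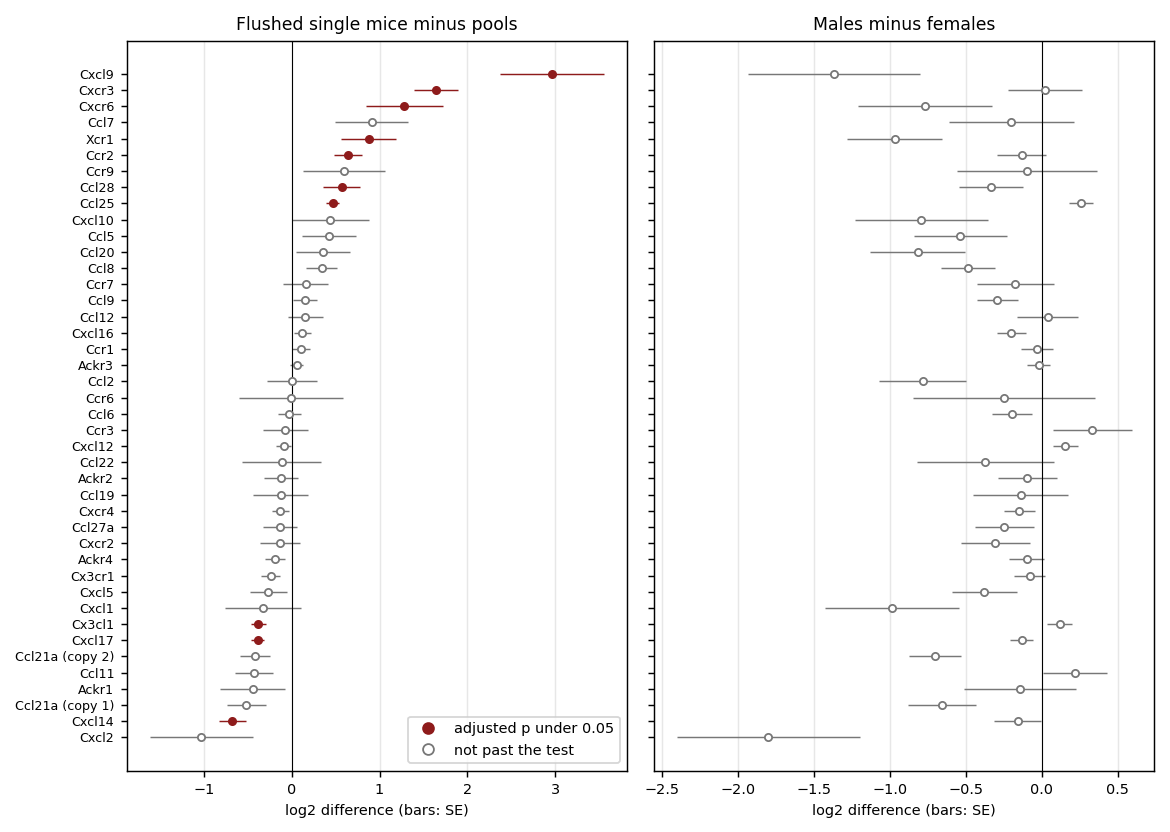
Log2 difference with its SE for 42 tested members, flushed single mice minus pools on the left and males minus females on the right, in the order of the left panel; filled points passed an adjusted p of 0.05. Cxcl9 and Cxcr3 have the largest differences between preparations, and in the right panel 35 of 42 points lie below 0 with none filled.

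Marker genes of leukocytes differed between preparations in both directions. Over all tested genes 22.6% were higher in flushed tissue and 22.9% lower, and some of the lists lie near these shares. An excess in any list was not tested. Of 9 general leukocyte markers 2 were higher in flushed tissue (Ptprc and Cd53) and 4 lower (Coro1a, Lcp1, Arhgdib and Tyrobp), with a median log2 difference of -0.26 and sums of 300 to 358 CPM in flushed libraries and 307 to 412 CPM in pools. Of 13 T and natural killer cell markers, 6 were higher in flushed tissue and none lower, and their summed level was 24.1 and 22.4 CPM in flushed males and 27.0 and 22.8 CPM in flushed females, against 13.8 and 13.3 CPM in male pools and 23.2 and 12.7 CPM in female pools. By this sum female pool 1 lay among the flushed libraries, with Cd3g at 5.31 CPM against 0.459 to 0.869 CPM in the other pools. For each of the 6 markers that passed (Cd2, Cd4, Cd8a, Lck, Nkg7 and Trac), female pool 1 lay below every flushed library. Of 4 plasma cell markers 3 were tested and all 3 were higher, with sums of 166 to 239 CPM in flushed libraries, against 129 CPM in female pool 1 and 6.03 to 11.9 CPM in the other pools.

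Other marker lists gave other counts, to be read beside the same shares over all tested genes. Of 12 neutrophil markers 10 were lower in flushed tissue and none higher. Ltf alone made up 94.6 to 98.1% of their summed level in each library, with 6550 to 8980 CPM in flushed libraries and 8360 to 11400 CPM in pools. Without Ltf, left out after its values were seen, the sums were 173 to 315 CPM in flushed libraries and 452 to 572 CPM in pools, with no overlap. Mmp9 made up much of these sums, with 115 to 141 CPM in flushed libraries and 204 to 232 CPM in pools. S100a9, Camp and Mmp9 did not overlap, but other markers did. Flushed male 1 had 46.4 CPM of S100a8, 18.8 of Ngp and 10.7 of Mpo, where the lowest pools had 31.6, 16.4 and 7.1 CPM. Of 12 macrophage markers 3 were higher and 2 lower (414 to 465 CPM in flushed libraries, 390 to 455 CPM in pools), and of 4 monocyte markers 1 was higher and 1 lower. Of the 6 dendritic cell markers tested, none passed in either direction (53.2 to 56.4 CPM summed in flushed libraries, 50.1 to 60.3 CPM in pools). Of the B cell markers 3 of 6 tested were lower, as were 8 of 12 endothelial and 5 of 8 platelet markers, and none of these was higher. Of 8 fibroblast and matrix markers 5 were lower and 2 higher (17000 to 22600 CPM summed in flushed libraries, 35600 to 46300 CPM in pools). Of 5 bone markers 3 were lower and 0 higher (384 to 573 CPM summed in flushed libraries, 696 to 737 CPM in pools). Of 4 basal epithelial markers 2 were lower and 1 higher, and of 7 mural markers 3 were lower and 1 higher. No marker in these lists was at 0 in every library. The part of any cell type in the differences of the members was not tested.

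Genes related to the chemokine system gave the following counts, where 22.6% of all tested genes were higher and 22.9% lower. Of 18 relatives and modulators of chemokines, a list that also holds the chemokines Pf4 and Ppbp, 17 were tested. In flushed tissue 2 were higher and 6 lower (median log2 difference 0.02). Pf4 and Ppbp, also in the platelet list, were among the lower ones. Cmtm7 and Cmtm8, members of the chemokine-like factor family, were lower with 13.9 ± 1.16 and 4.89 ± 1.05 CPM in flushed libraries, against 20 ± 1.63 and 7.12 ± 0.947 CPM in pools (SD, n = 4 each, adjusted p = 0.00079 and 0.005). Of 15 genes of receptor signalling, 2 were higher and 6 lower (median -0.23), and Prex1, a Rac activator, and Grk6, a receptor kinase, were lower by 1.32-fold and 1.31-fold (adjusted p = 0.00026 and 0.00066).

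Among genes known as targets of interferon, 10 of 11 were tested, 2 were higher and 2 lower (median 0.01). Over all tested genes 22.6% were higher and 22.9% lower. Gbp2, a guanylate-binding protein, had 51.4 ± 15.9 CPM in flushed libraries and 32.3 ± 9.55 CPM in pools (1.6-fold, adjusted p = 0.024). Among targets of NF-kappaB, 10 of 11 were tested, 1 was higher and 6 lower (median -0.46). Ier3, an early response gene, had 15.3 ± 1.93 CPM in flushed libraries and 27.4 ± 3.06 CPM in pools (adjusted p = 0.00028), and Socs3, an inhibitor of cytokine signalling, had 14.4 ± 1.72 CPM in flushed libraries and 23.4 ± 2.87 CPM in pools (SD, n = 4 each, adjusted p = 0.00073).

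The second comparison set males against females. No member passed the test, where 0.116% of all genes did, and the smallest adjusted p was 0.31, for the chromosome 4 copy of Ccl21a (log2 difference -0.70, SE 0.17). DESeq2 and limma-voom called none either. At an unadjusted p of 0.05, edgeR took 10 of 43 members (9 ligands and 1 receptor) and 7.96% of all genes. DESeq2 took 8 members and 1225 of 20601 genes, and limma-voom 9 members and 1567 of 20601 genes.

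Most members were lower in males without passing. Log2 differences were below 0 for 36 of 43 members with a median of -0.20, while over all genes 50.9% were below 0 and the median was -0.003. The median was -0.18 within flushed mice (35 of 43 below 0) and -0.23 within pools (32 of 43). Without female pool 1 it was -0.11 (31 of 43), without flushed female 2 it was -0.18 (34 of 43), and without female pool 2 it was -0.34 (35 of 43). That last fit had 16 members and 1749 of 20601 genes at an unadjusted p of 0.05. Both copies of Ccl21a summed had 2.89 and 2.79 CPM in flushed males and 2.65 and 4.11 CPM in male pools, against 3.87 and 4.07 CPM in flushed females and 5.87 and 6.49 CPM in female pools. Ccl25 went the other way, higher in males within each preparation, with a log2 difference of 0.26 (SE 0.08, adjusted p = 0.44). Summed erythroid markers were 602 and 622 CPM in flushed males and 115 and 106 CPM in flushed females. They were 1870 and 2060 CPM in male pools and 1650 and 1690 CPM in female pools, and no erythroid marker passed between the sexes. The part of blood in the sex differences of the members was not tested.

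The interaction term asked whether the difference between preparations varied with sex. No member passed with edgeR, DESeq2 or limma-voom, where 0.0485% of all genes passed with edgeR, and 2 of 43 members were at an unadjusted p of 0.05 with each tool, against 3.25% of all genes with edgeR. Ccl28, whose flushed females stand apart, had an interaction of -0.97 (adjusted p = 1.0). Without female pool 1 this became -1.48 with an adjusted p of 0.02. The cause of that change was not tested.

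**Figure D4:**
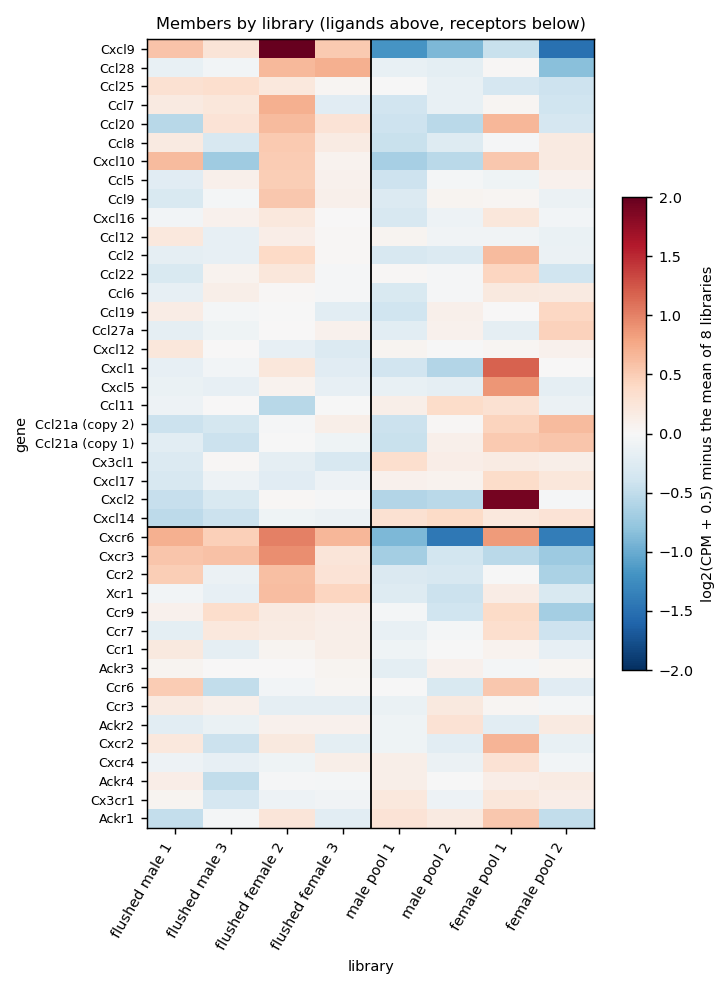
Log2(CPM + 0.5) of 42 tested members in each library minus the mean of the member over the 8 libraries, with flushed libraries left of the vertical line, ligands above the horizontal line and receptors below it, and each block in order of the difference between preparations. Female pool 1 is red for Cxcl1, Cxcl2, Cxcl5, Cxcr2 and Cxcr6, and flushed female 2 for Cxcl9 and Cxcr3.

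A pair of libraries held many of the highest values. Female pool 1 was the highest of the 4 pools for 25 of 43 members (58.1%), where it was the highest for 24.6% of all genes. Flushed female 2 was the highest of the 4 flushed libraries for 20 of 43 members (46.5%), where it was the highest for 23.4% of all genes.

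Members that stood out in female pool 1 include neutrophil attractants and their receptor, singled out after their values were seen. Cxcl2 had 0.396 and 0.495 CPM in flushed males, 0.757 and 0.705 CPM in flushed females, 0.324 and 0.345 CPM in male pools and 4.12 and 0.716 CPM in female pools. Cxcl1 had 2.57 CPM in female pool 1 and 0.402 to 1.09 CPM in the other 7 libraries. Cxcl5, of the same group, had 15.6 CPM there and 7.21 to 8.71 CPM in the others.

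Cxcl3, not tested for low counts, had 1.51 CPM in female pool 1 and 0 to 0.172 CPM in the other libraries. Cxcr2, the receptor of these ligands on neutrophils, had 8.66 CPM there and 4.41 to 4.86 CPM in the other pools, with 3.73 to 6.08 CPM in flushed libraries. Beside them, the cytokine gene Il1b had 28.2 CPM in female pool 1 and 5.51 to 8.13 CPM in the other pools. Tnf had 2.88 CPM against 0.746 to 1.53 CPM. Of the NF-kappaB targets, which include both, all but Ier3 and Zfp36 were highest of the pools there. The summed neutrophil markers without Ltf were 572 CPM against 452 to 474 CPM. Mpo (15.2 CPM) and Elane (4.65 CPM) were higher in male pool 1, at 21.2 and 7.68 CPM. S100a8 (49.3 CPM) was higher in male pool 2 (51.4 CPM) and Mmp9 (225 CPM) in female pool 2 (232 CPM). The other markers in this sum were highest of the pools in female pool 1. Whether the genes high in female pool 1 move together for 1 reason was not tested.

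**Figure D5:**
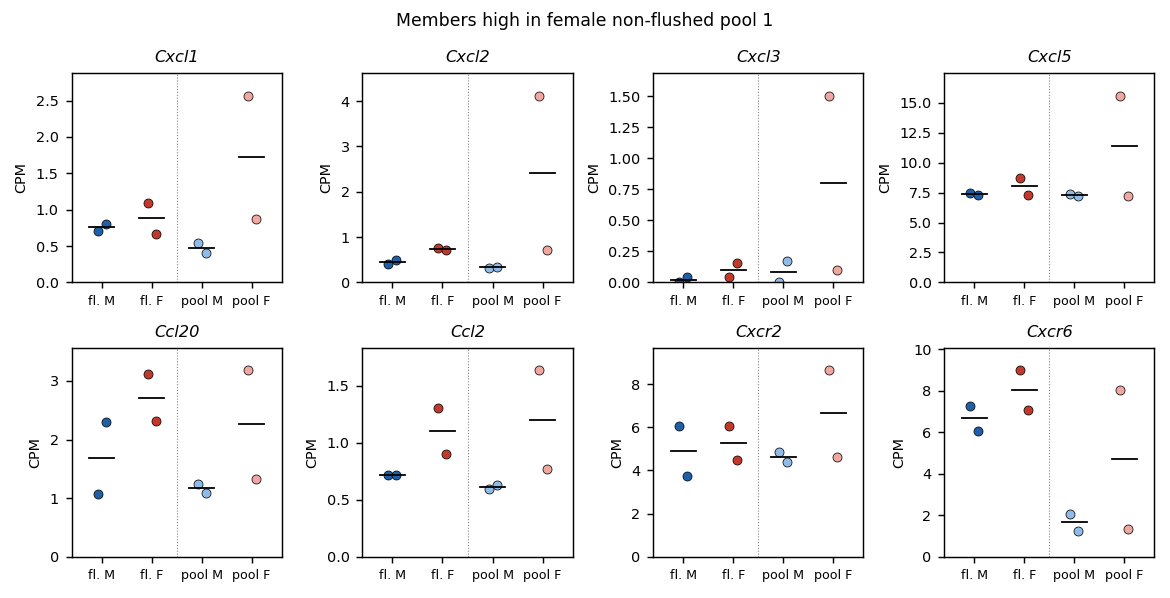
CPM per library of 8 members chosen after their values were seen because female pool 1 was high; axes and symbols are as in the plot of the members that passed the test. In each panel 1 female pool point lies far above the other pools, at 4.12 CPM for Cxcl2 and 15.6 CPM for Cxcl5.

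The promoters of Cxcl1, Cxcl2 and Cxcl3 and of Ccl20, the ligand of Ccr6, are shown because these members were high in female pool 1 (Ccl20 at 3.19 CPM against 1.09 to 1.33 CPM in the other pools, with 1.07 to 3.11 CPM in flushed libraries) and hold letters like the motif that NF-kappaB binds. They are RefSeq sequences of GRCm38.p6, from 250 bases before to 50 after the start of the gene, 5′ to 3′, and the capitals mark matches to GGGNNNTTCC or to its reverse complement GGAANNNCCC, some of which overlap. Cxcl1 is chr5:90890995-90891294, Cxcl2 chr5:90903649-90903948, Cxcl3 chr5:90785851-90786150 and Ccl20 chr1:83116516-83116815, all on the plus strand.
Cxcl1: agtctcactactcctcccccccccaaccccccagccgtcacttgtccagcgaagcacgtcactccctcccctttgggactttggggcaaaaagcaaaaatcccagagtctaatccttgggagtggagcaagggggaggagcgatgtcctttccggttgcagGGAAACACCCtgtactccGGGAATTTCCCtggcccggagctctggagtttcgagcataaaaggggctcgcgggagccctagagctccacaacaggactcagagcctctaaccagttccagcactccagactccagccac
Cxcl2: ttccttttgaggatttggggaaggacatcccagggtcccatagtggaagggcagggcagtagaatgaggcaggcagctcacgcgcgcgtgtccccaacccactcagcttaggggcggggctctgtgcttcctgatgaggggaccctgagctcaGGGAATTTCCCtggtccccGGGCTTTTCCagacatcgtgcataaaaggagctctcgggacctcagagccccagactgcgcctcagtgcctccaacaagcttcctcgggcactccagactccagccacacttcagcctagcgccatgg
Cxcl3: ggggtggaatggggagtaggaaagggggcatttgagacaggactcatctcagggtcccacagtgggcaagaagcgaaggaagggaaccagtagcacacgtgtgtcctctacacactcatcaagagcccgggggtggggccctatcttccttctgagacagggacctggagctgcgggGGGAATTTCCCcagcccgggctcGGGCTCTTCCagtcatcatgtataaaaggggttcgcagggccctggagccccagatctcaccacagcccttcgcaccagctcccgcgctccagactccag
Ccl20: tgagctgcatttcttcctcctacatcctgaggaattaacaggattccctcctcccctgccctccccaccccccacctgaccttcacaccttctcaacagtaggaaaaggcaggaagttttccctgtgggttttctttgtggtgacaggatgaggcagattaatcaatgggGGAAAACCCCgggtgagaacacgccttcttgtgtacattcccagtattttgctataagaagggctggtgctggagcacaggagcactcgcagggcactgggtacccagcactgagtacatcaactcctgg
In these 4 promoters the matches began between -97 and -50 relative to the start of the gene. Over both strands the motif was found in 9 of the 45 member symbols with a RefSeq promoter and in 5.56% of 32851 promoters. Besides the 4 shown, these were Ccl1, Ccl9, Ccr3, Ccr6 and Cxcl10. Ccl1 was at 0 in every library. Ccl9 had 21.67 CPM in female pool 1 and 21.70 CPM in male pool 2, and Ccr3 had 0.664 and 0.804 CPM there. Ccr6 and Cxcl10 were highest of the pools in female pool 1. A tie between motif and library was not tested. The interferon motif GAAANNGAAA was found in 3 of the 45 (3.44% of all promoters), and the palindromic motif TTCNNNGAA in 3 of the 45 (8.3%). Members were counted by symbol, with a match in any promoter of the symbol, and the background by single promoter. Some symbols, such as Ccr6, have several promoters, so the shares are not in like units. Of the other members plotted as high in female pool 1, Cxcr2 and Cxcr6 have a RefSeq promoter without a match to the first motif, and the promoters of Ccl2 and Cxcl5 were not analysed here. A match describes the letters only, and binding was not measured.

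The genes annotated more than once need care. Reads that fit several copies were divided evenly between them, so the level of a single copy of Ccl19, Ccl21a, Ccl21b or Ccl27 is uncertain. With the copies of each symbol summed, Ccl21a passed as lower in flushed tissue (log2 difference -0.46, adjusted p = 0.038). Its groups overlapped, with 2.79 to 4.07 CPM in flushed libraries and 2.65 (male pool 1) to 6.49 CPM in pools. Neither copy alone passed within a sex, with log2 differences of -0.245 and -0.219 within males and -0.539 and -0.737 within females. Reads in exons shared by genes of the same strand were not counted, which touches 25.7% of the exon length of Ackr1, shared with Cadm3, and 5.7% of that of Ccr9.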

How the data were processed

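Whole-tissue RNA of 8 libraries was polyA-selected, and stranded libraries were sequenced from 1 end (100 nucleotides), per the labels' protocols. Per the submitters' processing notes, the aligner was STAR 2.7.1a, the genome GRCm38 (mm10) and the counter featureCounts 1.6.5. The authors deposited expected counts without normalization: multiply aligned reads were split into fractions, counting was reverse stranded over exons, and reads that overlap more than 1 gene were left out, per the file headers. Depth is given with the results, and PCR copies of a molecule cannot be recognised. Replicates were separate mice or pools, per the labels.

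Symbols came from GENCODE M21 by identifier (48422 of 48831 genes). Rounded counts went into edgeR 4.0.16 under R 4.3.3 (TMM, filterByExpr on the 4 groups, quasi-likelihood F test) with additive terms for sex and preparation, or with their interaction added. Genes were called at 0.05 after Benjamini-Hochberg adjustment over 20601 genes. The SE is the log2 difference divided by the square root of F. CPM used TMM-scaled library sizes, and RPKM further divides by the exon length that the headers list. The code was tested on simulated data. Alternatives were DESeq2 1.42.0, limma-voom (limma 3.58.1), other normalization factors, other filters (none, or 1 CPM in at least 4 libraries), unrounded counts, each library left out, fits within sex or preparation, and fits without X- and Y-linked genes. A fit with copies of a symbol summed was chosen after seeing the data.

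Members, gene lists and tests were chosen with earlier results of these data known. Named are the members called in any comparison, the 10 ligands and 10 receptors of highest mean RPKM, and the 2 genes of smallest p of each pathway list. Other members named for their role or for a single library were chosen after their values were seen. Values of 1 called receptor and of 1 gene of a pathway list are not reported here, while the counts over all tested members include that receptor.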

Additional observations from a re-analysis of the deposited data

Results flagged for a closer look

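In 8 of 86 groups of 4 libraries (9.3%), 1 library lay far from the others by Dixon's criterion, where the nominal share is about 1 in 20. That share assumes normally distributed values, and each group of 4 holds both sexes. The share over all tested genes is not given here, so an excess among the members was not tested. In the non-flushed pools the library far from the others was female pool 1 each time. It had 1.64 CPM of Ccl2 (0.595 to 0.767 CPM in the other pools), 3.19 CPM of Ccl20 (1.09 to 1.33), 4.12 CPM of Cxcl2 (0.324 to 0.716), 15.6 CPM of Cxcl5 (7.21 to 7.40), 8.66 CPM of Cxcr2 (4.41 to 4.86) and 8.06 CPM of Cxcr6 (1.26 to 2.05). In the flushed single mice it was flushed female 2, with 8.71 CPM of Cxcl5 (7.29 to 7.45 CPM in the remaining 3 mice) and 13 CPM of Cxcl9 (2.02 to 2.66).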

How the results depend on the processing

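Of the single members followed under each alternative, none changed sign in a call. Between preparations 29 values lost and 5 gained a call, 5 gained one between the sexes and 3 in the interaction. Members higher in flushed tissue numbered 8, but 5 with DESeq2 (4227 of all genes in place of 4656), 5 within males (2540 of all genes) and 5 to 8 with 1 library left out (5 without female pool 2, flushed female 2 or flushed male 3). Members lower numbered 3, but 5 with no filter (4543 of all genes in place of 4721), 1 within males (2063) and 3 to 5 with 1 library left out (5 without male pool 1 or flushed male 1). With 1 library left out, 3947 to 4570 of all genes were higher in flushed tissue and 3568 to 4494 lower. The fits with no filter tested 61 members and 32514 genes. Between the sexes, 9 members were lower in males with no filter, where the calls over all genes numbered 327 higher and 457 lower in place of 17 and 7. With no filter the interaction called 1 member higher and 1 lower, and with 1 library left out 0 to 1 lower (1 without female pool 1, Ccl28). Fits within a sex rest on 2 libraries against 2; otherwise the cause was not tested. No paired analysis was possible because pools carry no replicate number and the single mice share only 1 number across sexes. Members under about 1 CPM rest on few counts, so a difference there was not detectable unless large.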
